A study of Mus musculus with 35 samples.

Results

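The cadherin and protocadherin genes are the genes whose names in the 33 deposited peak lists start with Cdh or Pcdh followed by a digit, or with Pcdha, Pcdhb or Pcdhg. They number 88 of the 23852 gene names in those lists, and 3482 of the 1212511 peaks carry their names. There are 35 single genes and 53 genes of the alpha, beta and gamma protocadherin clusters, which lie side by side on chromosome 18. The single genes are 5 classical type I cadherins, 13 classical type II cadherins, 5 other cadherins, 9 delta protocadherins and 3 other protocadherins.

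The lists come from chromatin immunoprecipitation and sequencing of mouse pre-B cell progenitors grown attached to stroma, at passages 3 to 8. IKDN cells carry a dominant-negative allele of the transcription factor Ikaros, together with a CD2 Cre transgene, which expresses Cre recombinase under control of the lymphoid CD2 gene. WT cells came from WT mice, and no Cre is named for them. Each genotype has 1 library per target, and 15 targets were mapped in both genotypes. Ikaros was mapped in WT cells only, and LHX2 and LMO2 in IKDN cells only. How many animals or cultures stand behind a library is not given in the sources used here. Of the 9 B lineage marker genes, 8 carried peaks of H3K27ac, a mark of active promoters and enhancers, which covered 103 kb in IKDN cells and 169 kb in WT cells. By the rule given below, 4 were called lower in IKDN cells (16.8% of all genes) and none higher (21.9% of all). Cd79a, among those called lower, had 0 in IKDN cells and 25.8 kb in WT cells by name. RNA polymerase II named to Cd79a went the other way, with 29.3 kb in IKDN cells and 0 in WT cells. Across these markers the polymerase was called higher at 2 and lower at 2. The 12 stromal fibroblast markers had 30.7 kb of H3K27ac in IKDN cells and 22.5 kb in WT cells, and 9 of them carried a peak. By the same rule, 2 were called higher in IKDN cells, Cxcl12 and Twist2 (21.9% of all genes), and 3 lower (16.8% of all). Their median difference was -500 bp. H3K27me3, the Polycomb mark of silent genes, covered 465 kb at stromal markers in IKDN cells and 101 kb in WT cells. H3K4me3, a promoter mark, was called lower at 8 of the 9 stromal markers with a peak (10.9% of all genes). It covered 5.48 kb at stromal markers in IKDN cells and 30.7 kb in WT cells. The labels name a different H3K4me3 antibody in each genotype. In such bulk libraries, fewer cells of a type and less signal per cell cannot be told apart, and the part of stromal cells in the results below was not tested.

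Cadherins are adhesion receptors of the cell surface that bind their own kind on a neighbouring cell through calcium-dependent extracellular repeats. Classical cadherins anchor to actin through catenins and build adherens junctions, above all in epithelia, endothelia and the nervous system. Protocadherins lack the catenin-binding tail, and the clustered ones give neurons a surface identity through the choice of alternative promoters that share constant exons. Most of these genes are silent in blood cells.

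Values are the length covered by peaks that carry a gene's name, in kb. The name is that of the nearest annotated start site, so in gene-poor regions a peak can lie far from its gene. A gene was called higher or lower in IKDN cells if the covered length differed at least 1.5-fold and by at least 1000 bp (500 bp for MED1 and transcription factors). Beside each count of members stands the share of all genes with a peak that met the same rule. With 1 library per genotype there is no replicate error, no test and no p-value, and no difference below can be set against the spread between cultures.

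Most members carried no H3K27ac in either genotype. H3K27ac peaks were named to 28 of 88 members, H3K4me3, found at active and poised promoters, to 40, and H3K36me3, which marks transcribed gene bodies, to 31. H3K27me3 was named to 65. The members' H3K27ac peaks were more often distant from the named start site than those of the whole lists. More than 100 kb from it lay 26.0% of those in IKDN cells and 39.3% of those in WT cells. Of all H3K27ac peaks, the shares were 9.74% in IKDN cells and 10.8% in WT cells. Within the gene or 10 kb around it lay 45.2% of the members' H3K27ac length in IKDN cells and 29.2% in WT cells. The members' H3K27ac peaks also overlapped less between the genotypes than those of the whole lists. Of 77 H3K27ac peaks in IKDN cells, 37.7% overlapped a WT peak (exact 95% interval 26.9 to 49.4, counting error only), against 59.6% of all. Of 56 in WT cells, 50% overlapped an IKDN peak (36.3 to 63.7), against 67.9% of all.

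Both directions occurred for every broad mark. For H3K27ac, 9 members were called higher in IKDN cells (21.9% of all genes were) and 5 lower (16.8% of all genes). The members' total was 117 kb in IKDN cells and 93.9 kb in WT cells, a ratio of 1.25, where the whole lists had a ratio of 1.05. For H3K4me1, an enhancer mark, 12 were higher (21.6% of all) and 7 lower (20% of all). These counts came from 28 members with a peak, so the share called was 32.1% higher and 17.9% lower for H3K27ac, and 42.9% higher and 25.0% lower for H3K4me1. The median difference of members with a peak was 451 bp for H3K27ac, against 119 bp over all genes, and 840.5 bp for H3K4me1, against -28 bp. For H3K4me2, 9 of 49 were higher (15.1% of all) and 5 lower (12.9% of all), a split close to that of all genes. Over gene bodies with 10 kb on each side, where nested gamma genes share the same peaks, 28 members were higher for H3K27ac (18.3% of all), 30 for H3K4me1 (19.7%) and 28 for H3K4me2 (12.1%).

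For H3K4me3, 1 of 40 members was higher (5.14% of all genes) and 8 were lower (10.9% of all). The lower members were Cdh11, Cdh17, Cdh23, Pcdh9, Pcdh11x, Pcdh19, Pcdhgb5 and Pcdhgc3. The antibody that the labels name for H3K4me3 in IKDN cells is not the one named in WT cells but the one named for H3K4me1, and the whole H3K4me3 list covers 31.0 Mb in IKDN cells and 34.9 Mb in WT cells. For H3K36me3, 6 of 31 were higher (30.4% of all) and 4 lower (10.1% of all), with a median difference of -143 bp against 1157 bp over all genes. For RNA polymerase II phosphorylated on serine 5 (RNAPII), 10 of 27 were higher (27.2% of all) and 6 lower (24.8% of all). H3K27me3 was higher at 15 of 65 members (29.6% of all) and lower at 20 (33.3% of all), with 15 of the 20 in the clusters. With each cluster counted as 1 gene, 7 were lower (33.2% of all).

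**Figure D1:**
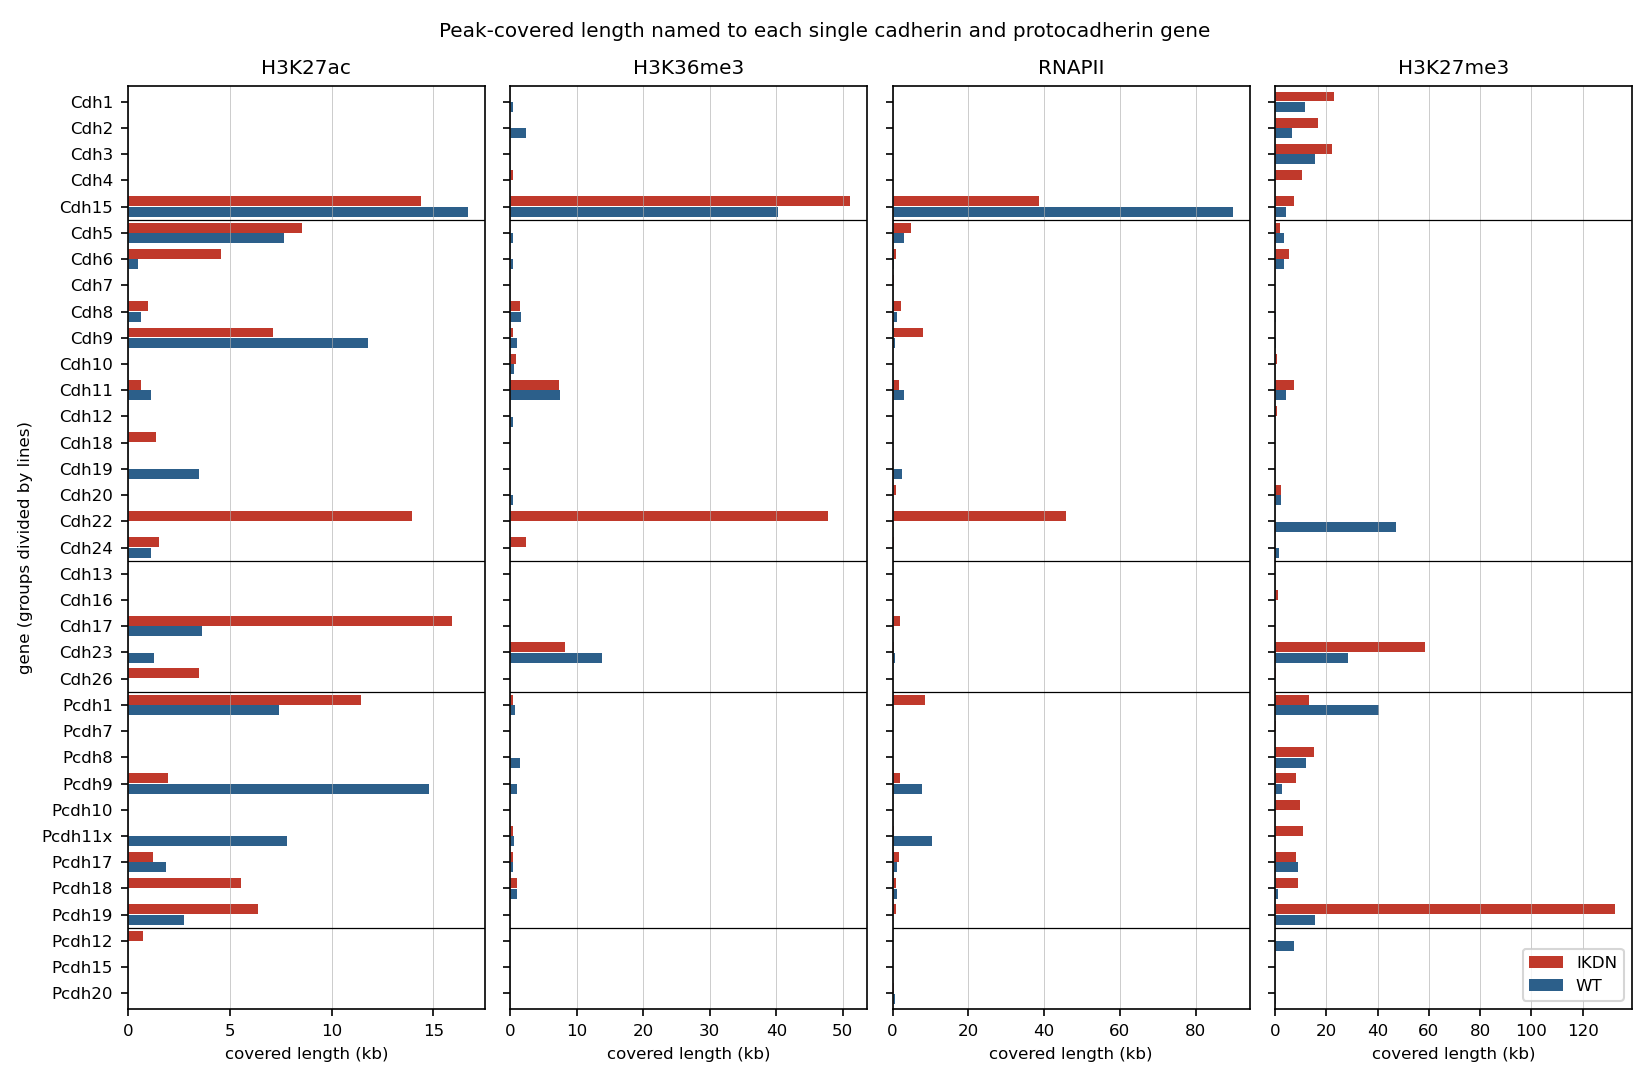
Length covered by H3K27ac, H3K36me3, RNAPII and H3K27me3 peaks (x axes, kb) named to each of the 35 single genes (rows, in groups divided by lines), with IKDN above WT for each gene and 1 library per bar. Cdh22 has 13.96 kb of H3K27ac, 47.7 kb of H3K36me3 and 45.7 kb of RNAPII in IKDN cells and none in WT cells, which have 47.1 kb of H3K27me3 there.

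The promoters of members were compared first. A promoter held a mark if a peak reached within 2.5 kb of a start site worked out from the deposited distances, which was possible for 85 members. H3K4me3 together with H3K27me3, the bivalent state of poised developmental genes, was found at 14 members in IKDN cells and 17 in WT cells. H3K4me3 alone was at 9 in IKDN cells and 4 in WT cells, and H3K27me3 alone at 20 in IKDN cells and 30 in WT cells. Neither mark was at 42 in IKDN cells and 34 in WT cells. Over 19010 protein-coding genes, H3K4me3 alone was the commonest state, with 47.1% in IKDN cells and 42.1% in WT cells. The state differed between genotypes at 41.2% of members, with 37.1% of the 35 single genes and 44% of the 50 clustered ones, and at 20.8% of all protein-coding genes.

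**Figure D2:**
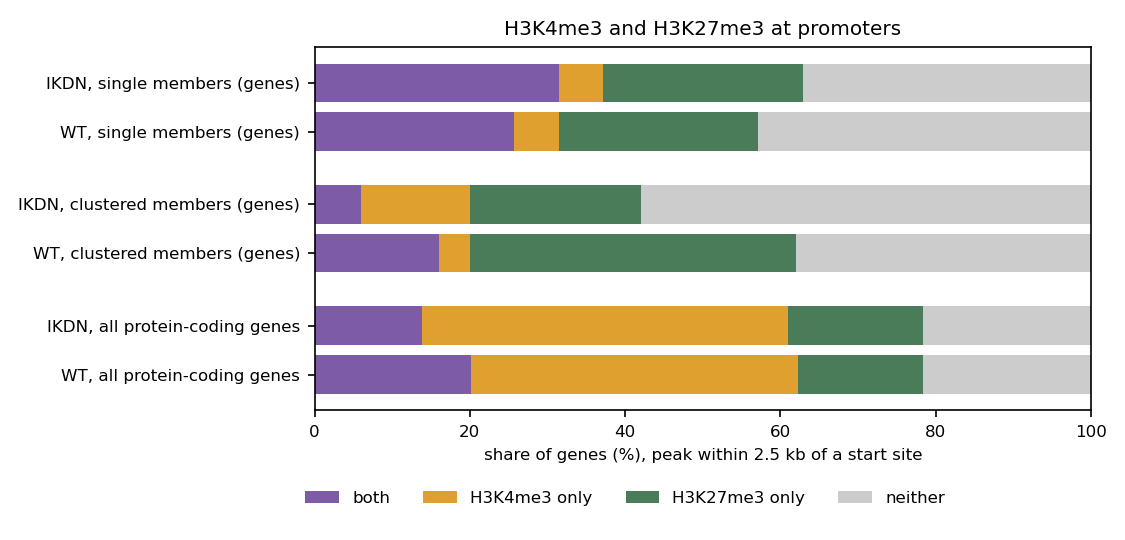
Share of genes (x axis, %) with H3K4me3 and H3K27me3, either mark alone or neither within 2.5 kb of a start site, in IKDN and WT cells, for 35 single genes, 50 clustered genes and 19010 protein-coding genes. Among clustered genes H3K27me3 alone is at 22% in IKDN cells and 42% in WT cells, and neither mark at 58% in IKDN cells and 38% in WT cells.

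Named by state, the cadherins that kept both marks in both genotypes were Cdh2, and among protocadherins Pcdh1, Pcdh7, Pcdh17, Pcdh18, Pcdh19 and Pcdhga1. Cdh22 and Cdh24 had H3K4me3 alone in IKDN cells and both marks in WT cells, as did Pcdhgb7, Pcdhgc3 and Pcdhgc4. The reverse was seen at Pcdh9, Pcdh11x and Pcdhb1, which had both marks in IKDN cells and H3K4me3 alone in WT cells. These lists, and the genes printed next, were chosen after their values were seen.

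The promoter sequences of 4 genes whose marks differed are shown, since their CpG content is the feature they share. RefSeq promoters of build GRCm38.p6, 250 bases before the start to 50 after it, were at hand for 22 members. They are written 5′ to 3′ in the direction of the gene, with every CG dinucleotide in capitals. The positions are chr2:165234688-165234987 on the minus strand for Cdh22, chr14:54641315-54641614 on the minus strand for Cdh24, chr14:93890630-93890929 on the minus strand for Pcdh9 and chrX:133688944-133689243 on the minus strand for Pcdh19.
Cdh22: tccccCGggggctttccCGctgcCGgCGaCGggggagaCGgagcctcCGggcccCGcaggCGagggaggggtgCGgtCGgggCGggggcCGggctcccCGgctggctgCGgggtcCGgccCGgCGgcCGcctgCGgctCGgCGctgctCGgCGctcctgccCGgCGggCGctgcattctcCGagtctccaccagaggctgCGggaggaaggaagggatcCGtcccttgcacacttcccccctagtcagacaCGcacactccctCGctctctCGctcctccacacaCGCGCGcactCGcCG
Cdh24: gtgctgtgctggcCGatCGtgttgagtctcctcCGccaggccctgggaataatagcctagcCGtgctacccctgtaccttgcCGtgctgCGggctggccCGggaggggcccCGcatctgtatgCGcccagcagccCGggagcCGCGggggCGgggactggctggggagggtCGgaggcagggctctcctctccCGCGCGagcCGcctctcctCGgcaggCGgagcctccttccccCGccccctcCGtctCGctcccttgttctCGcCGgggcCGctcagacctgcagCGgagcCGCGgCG
Pcdh9: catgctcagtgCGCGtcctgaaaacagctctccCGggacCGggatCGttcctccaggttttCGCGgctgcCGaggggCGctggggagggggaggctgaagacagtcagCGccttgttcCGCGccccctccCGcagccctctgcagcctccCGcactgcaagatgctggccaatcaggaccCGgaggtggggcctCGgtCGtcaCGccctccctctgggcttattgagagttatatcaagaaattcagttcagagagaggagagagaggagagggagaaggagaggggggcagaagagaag
Pcdh19: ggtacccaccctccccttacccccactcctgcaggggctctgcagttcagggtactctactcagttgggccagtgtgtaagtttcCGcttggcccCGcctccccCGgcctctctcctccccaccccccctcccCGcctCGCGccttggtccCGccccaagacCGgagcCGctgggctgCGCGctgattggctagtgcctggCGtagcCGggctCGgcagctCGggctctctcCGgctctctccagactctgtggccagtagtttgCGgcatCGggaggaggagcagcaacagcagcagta

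The Cdh22 window held 38 CG dinucleotides, that of Cdh24 held 30, and those of Pcdh9 and Pcdh19 held 18 each, where the median of 32851 promoters was 7 and 94.6% held at least 1. Across the 22 members, the 8 whose window met an H3K4me3 peak in either genotype had 11 to 38 CG dinucleotides (median 23.5). The 11 with neither H3K4me3 nor H3K27me3 over the 300 bases had 2 to 21 (median 8), so the ranges overlapped. The 3 with H3K27me3 but no H3K4me3 over them, Cdh6, Cdh12 and Pcdh8, had 8 to 14. These groups are not the promoter states above, which count peaks within 2.5 kb. By those states Cdh12 had both marks in IKDN cells. Among the 11, Cdh10 and Cdh20 had H3K27me3 in IKDN cells, and Cdh15 and Cdh23 in both genotypes. The Cdh22 window was overlapped by peaks of H3K27ac, H3K4me2, H3K4me3, RNAPII, MED1 and ETS1 in IKDN cells, and of H3K27me3, H3K4me1, H3K4me2 and H3K4me3 in WT cells. At Pcdh9 the overlapping marks were H3K27me3, H3K4me2 and H3K4me3 in IKDN cells, and H3K27ac, H3K4me2, H3K4me3 and RNAPII in WT cells, where Ikaros also had a peak. PAX5 had a peak over the Pcdh9 window in both genotypes.

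Core letters of the mapped factors were searched on both strands in the same windows. TGGGAA, the Ikaros core, was in 25.6% of all promoters and among the 4 printed ones only in Cdh24, starting at base 44 from the 5′ end. CAGGTG, bound by E2A, was in 20.2% of all promoters and in none of the 4. The same held for GGAATG of TEAD factors (14.7% of all), TAATTA of LHX2 (5.29%) and CCGGAA of ETS factors (14.9%). Their absence concerns these 300 bases only.

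The classical type I cadherins, which form the strongest adherens junctions, were covered by H3K27me3 in both genotypes apart from Cdh4. H3K27me3 was called higher in IKDN cells at 4 of the 5 (29.6% of all genes), and at 15 of the 65 members with a peak. Cdh1, which codes for E-cadherin, the adhesion receptor of epithelia, had 22.9 kb in IKDN cells and 11.6 kb in WT cells. Cdh3, which codes for P-cadherin, had 22.1 kb in IKDN cells and 15.6 kb in WT cells and did not meet the rule. Cdh2, which codes for N-cadherin of neural and mesenchymal tissue, had 16.7 kb in IKDN cells and 6.85 kb in WT cells. The widest Cdh1 peak, over the start of the gene, was 13.3 kb long in IKDN cells and 8.26 kb long in WT cells. Cdh4, which codes for R-cadherin, had 10.6 kb in IKDN cells and none in WT cells, and over its gene body with 10 kb on each side the lengths were 30.5 kb in IKDN cells and 0 in WT cells.

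None of Cdh1 to Cdh4 had an H3K27ac, RNAPII or MED1 peak in its name in either genotype. H3K4me3 at Cdh2 covered 1.92 kb in IKDN cells and 1.08 kb in WT cells. H3K36me3 at Cdh2 was 0 in IKDN cells and 2.36 kb in WT cells, in 2 peaks, and was called lower. Cdh4 was called higher for H3K4me2, with 4.78 kb in IKDN cells and none in WT cells, and for H3K4me1, with 1.20 kb in IKDN cells and none in WT cells. Cdh3 was called higher for H3K4me2, with 1.03 kb in IKDN cells and none in WT cells. At Cdh1, H3K4me2 covered 0.921 kb in IKDN cells and 0 in WT cells, which is below the size the rule asks for.

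Cdh15, which codes for M-cadherin of muscle precursors, had most of its named signal away from the gene. It had 14.4 kb of H3K27ac in IKDN cells and 16.7 kb in WT cells, and 38.7 kb of RNAPII in IKDN cells and 89.8 kb in WT cells. Its widest H3K27ac peaks lay 89.2 kb from its start in IKDN cells and 90.3 kb in WT cells, though the gene is only 19.02 kb long. The nearest other gene, Ankrd11, lies 15.9 kb from Cdh15. Over Cdh15 itself with 10 kb on each side, H3K27ac covered 1.47 kb in IKDN cells and 2.16 kb in WT cells, and RNAPII 1.32 kb in IKDN cells and 5.56 kb in WT cells. H3K27me3 over Cdh15 was 7.51 kb in IKDN cells and 4.24 kb in WT cells, and was called higher. All 5 type I cadherins thus carried the Polycomb mark in IKDN cells, and all but Cdh4 also in WT cells.

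Among the classical type II cadherins, Cdh22 differed most between the genotypes. It codes for a cadherin of pituitary and brain, and its gene spans 123 kb at chr2:165111501-165234924, with Cd40 at 39.8 kb and Slc35c2 at 41.6 kb as neighbours. H3K27ac covered 13.96 kb in IKDN cells and 0 in WT cells. RNAPII covered 45.7 kb in IKDN cells in 18 peaks, and 0 in WT cells. H3K36me3 covered 47.7 kb by name in IKDN cells and 0 in WT cells. All 3 marks of activity and transcription were thus present in IKDN cells and had no peak in WT cells. H3K27me3 had the opposite pattern, with 0 by name in IKDN cells and 47.1 kb in 16 peaks in WT cells.

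Counted over the gene body with 10 kb on each side, the difference at Cdh22 was larger for transcription. H3K36me3 covered 109 kb in IKDN cells and 0 in WT cells, and RNAPII 63.9 kb in IKDN cells and 0 in WT cells. H3K27me3 over the body was 1.42 kb in IKDN cells and 52.1 kb in WT cells. H3K4me3 was present in both genotypes, with 4.52 kb in IKDN cells and 1.84 kb in WT cells, and H3K4me1 covered 12.9 kb in IKDN cells and 4.10 kb in WT cells. MED1, a subunit of the Mediator complex that joins enhancers to RNA polymerase, covered 4.71 kb in IKDN cells and 0 in WT cells.

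Of the 6 H3K27ac peaks of Cdh22 in IKDN cells, 2 were over 5 kb long. The first, at chr2:165232525-165237654, covered the start of the gene and 5.13 kb in all, and peaks of MED1, EBF1, PAX5, IRF4 and ETS1 lay in it. The second, at chr2:165238573-165243633, covered 5.06 kb upstream of the start and held peaks of MED1, E2A, EBF1, PAX5, IRF4, ETS1, TEAD1, LHX2 and LMO2, 9 of the 10 factor lists of IKDN cells. Neither peak overlapped a WT H3K27ac peak. The labels name the same antibody for E2A, IRF4 and PAX5 in IKDN cells, and another for both ETS1 and LHX2. Counts of factor lists in a peak, here and below, may thus not be counts of separate factors. By name, Cdh22 had 4 EBF1 peaks in IKDN cells and 2 in WT cells, 7 PAX5 peaks in IKDN cells and 3 in WT cells, and 4 TEAD1 peaks in IKDN cells and 1 in WT cells. The WT E2A and ETS1 lists are incomplete on chromosome 2, so those factors were not compared there.

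**Figure D3:**
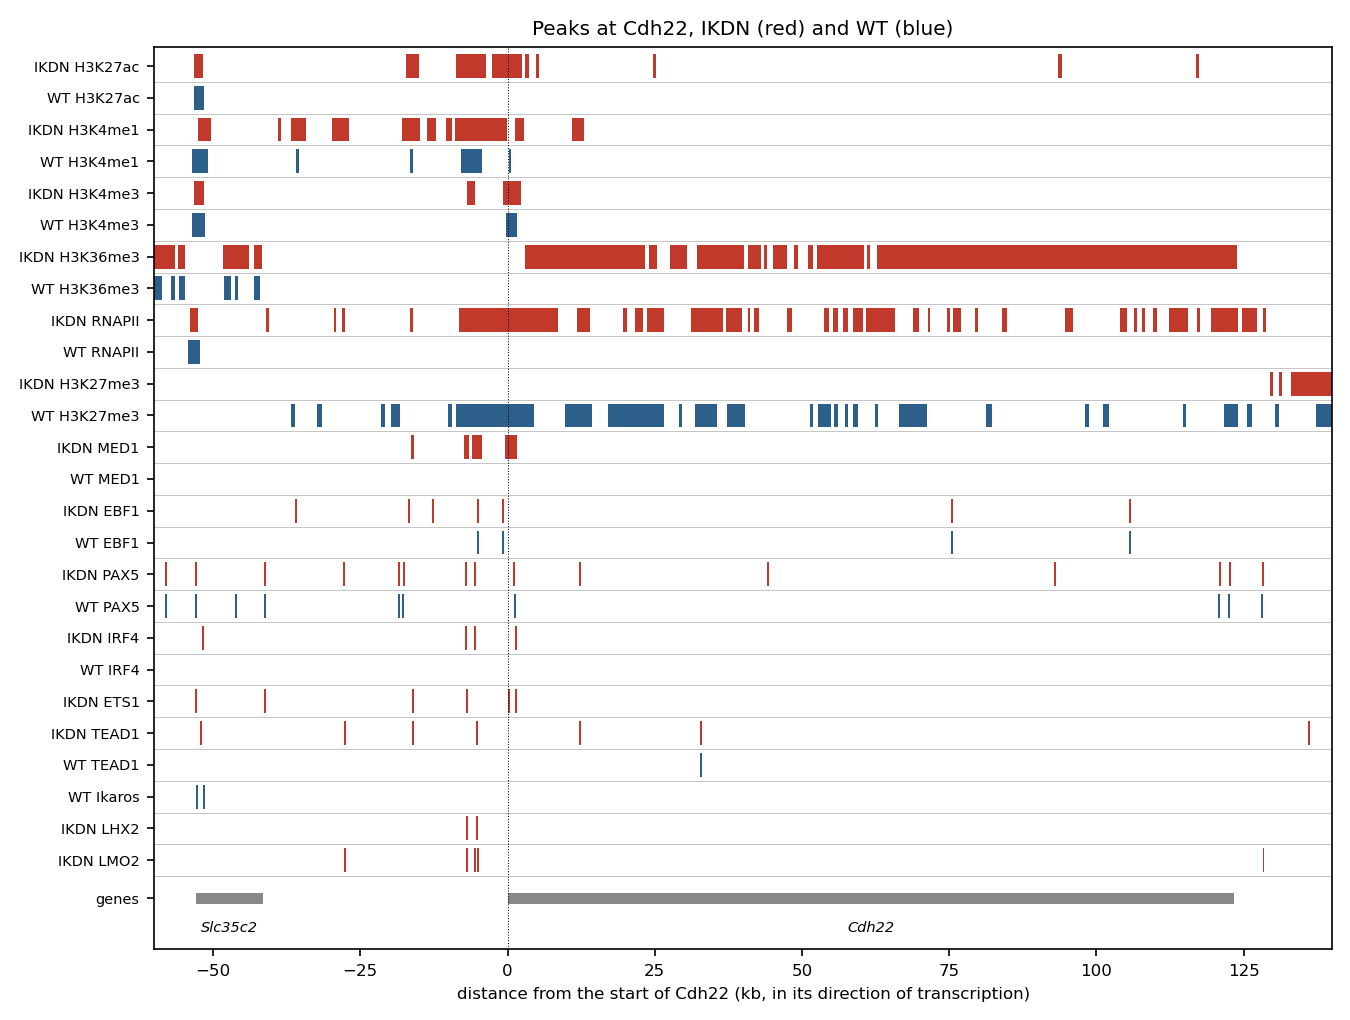
Peaks of each target around Cdh22 (x axis, kb from its start in the direction of transcription), with each IKDN list (red) above the WT list (blue), and very narrow peaks drawn at a minimum width. H3K36me3 and RNAPII run along the 123 kb gene in IKDN cells only, and H3K27me3 over the gene and its 10 kb flanks covers 1.42 kb in IKDN cells and 52.1 kb in WT cells.

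Other type II cadherins had smaller or more distant differences. Cdh24 had 1.55 kb of H3K27ac in IKDN cells and 1.15 kb in WT cells at its promoter. H3K27me3 at Cdh24 was called lower, with 0 in IKDN cells and 1.62 kb in WT cells. Its H3K36me3 covered 2.38 kb by name in IKDN cells and 0 in WT cells, but 16.4 kb in IKDN cells and 11.7 kb in WT cells over the body with 10 kb on each side. Cdh24 is 10.8 kb long and lies 0.094 kb from Acin1 and 1.675 kb from Psmb11. Those flanks therefore reach into other genes, and the longer values cannot be assigned to Cdh24. Cdh5, which codes for VE-cadherin of endothelial junctions, had 8.54 kb of H3K27ac in IKDN cells and 7.65 kb in WT cells, mostly in a peak 59.02 kb upstream in IKDN cells and 58.99 kb upstream in WT cells. Its H3K4me1 covered 14.6 kb in IKDN cells and 7.49 kb in WT cells, and its RNAPII 4.91 kb in IKDN cells and 3.13 kb in WT cells, both called higher. The distal H3K27ac was thus present in both genotypes, while the promoter had neither H3K4me3 nor H3K27me3 in IKDN cells and H3K27me3 alone in WT cells. The 5 endothelial markers, Cdh5 among them, had 24.2 kb of H3K27ac in IKDN cells and 27.2 kb in WT cells.

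Cdh11, which codes for OB-cadherin of mesenchymal cells, had H3K4me3 at its promoter in WT cells only. H3K4me3 covered 0.722 kb by name in IKDN cells, 80.5 kb from the start, and 2.53 kb in WT cells. H3K27me3 covered 7.31 kb in IKDN cells and 4.24 kb in WT cells, and RNAPII 1.63 kb in IKDN cells and 3.09 kb in WT cells. Its H3K36me3 was alike in length, with 7.38 kb in IKDN cells and 7.52 kb in WT cells. Cdh11 is also expressed in stromal cells. In summed length, the stromal markers above had more H3K27me3 and less H3K4me3 and RNAPII in IKDN cells, but also more H3K27ac and H3K36me3. RNAPII covered 32.8 kb at them in IKDN cells and 59.2 kb in WT cells. It was called higher at 2 (27.2% of all genes) and lower at 2 (24.8% of all). H3K36me3 covered 22.4 kb at them in IKDN cells and 10.2 kb in WT cells, with a peak at only 3 markers. Of this, Twist2 had 20.5 kb in IKDN cells and 9.59 kb in WT cells. The part of stromal cells in the Cdh11 difference was not tested.

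Cdh9, Cdh19, Cdh6 and Cdh18 illustrate the reach of the nearest-start rule. All H3K27ac named to Cdh9, a neuronal cadherin, lay 778 to 1688 kb from its start, with 7.11 kb in IKDN cells and 11.8 kb in WT cells. RNAPII named to Cdh9 covered 7.95 kb in IKDN cells and 0.633 kb in WT cells, 812 kb or more from the start, and over the gene itself with 10 kb on each side there was none in either genotype. Cdh19 had no H3K27ac in IKDN cells and 3.52 kb in WT cells, 174 kb away, and Cdh18 had 1.36 kb in IKDN cells and none in WT cells, 138 kb away. Cdh6 had 4.58 kb in IKDN cells and 0.5 kb in WT cells, again with none over its body.

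Of the 5 other cadherins, Cdh17 had the largest gain of H3K27ac. It codes for the liver-intestine cadherin, which has more extracellular repeats than classical cadherins and a short tail. H3K27ac covered 15.9 kb in IKDN cells in 5 peaks and 3.62 kb in WT cells in 2 peaks. MED1 covered 6.61 kb in IKDN cells and 0.849 kb in WT cells, and TEAD1 had 8 peaks in IKDN cells and 2 in WT cells. The largest H3K27ac peak in IKDN cells, at chr4:11729133-11735205, was 6.07 kb long, lay 26.0 kb upstream, overlapped no WT peak and held peaks of all 10 factor lists of IKDN cells. RNAPII covered 2.11 kb in IKDN cells and 0 in WT cells. H3K4me3 was 0 in IKDN cells and 1.21 kb in WT cells, at 4.83 kb from the start, and no H3K36me3 was named to the gene in either genotype. H3K27ac at Cdh17 was thus wider in IKDN cells without a peak of H3K4me3 or H3K36me3.

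Cdh23, a tip-link protein of inner-ear hair cells, had 58.4 kb of H3K27me3 by name in IKDN cells and 28.5 kb in WT cells. Over the whole gene with 10 kb on each side the order turned, with 77.5 kb in IKDN cells and 91.7 kb in WT cells, since peaks inside this long gene that carry other names were then included. Its H3K36me3 covered 8.31 kb in IKDN cells and 13.8 kb in WT cells by name, and 11.5 kb in IKDN cells and 11.8 kb in WT cells over the gene. Cdh26 had 3.48 kb of H3K27ac in IKDN cells in 4 peaks 67.7 to 127 kb away, and none in WT cells. Cdh16, a cadherin of kidney tubules, had 1.17 kb of H3K27me3 in IKDN cells and 0 in WT cells. Cdh13, which codes for T-cadherin, held by a lipid anchor, had no peak of any histone mark in its name, and its only call was TEAD1 with 0 peaks in IKDN cells and 5 in WT cells.

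Among the delta protocadherins, some had wider active marks in IKDN cells and others in WT cells. Pcdh1, known from airway epithelium in humans, was of the first kind. H3K27ac covered 11.5 kb in IKDN cells and 7.43 kb in WT cells, H3K4me1 26.8 kb in IKDN cells and 16.4 kb in WT cells, and RNAPII 8.62 kb in IKDN cells and 0 in WT cells. The RNAPII peaks lay 24.2 to 100 kb from the start. H3K27me3 covered 13.3 kb in IKDN cells and 40.6 kb in WT cells. Over the gene itself with 10 kb on each side the same orders held, with 2.91 kb of H3K27ac in IKDN cells and 0 in WT cells, and 11.7 kb of H3K27me3 in IKDN cells and 22.8 kb in WT cells. The IKDN minus WT difference over the gene with these flanks was 4.79 kb for H3K4me1 and only 1.42 kb for RNAPII. By name, H3K36me3 was 0.5 kb in IKDN cells and 0.665 kb in WT cells, so the transcribed-body mark did not differ by the rule. Factor peaks at Pcdh1 were more numerous in IKDN cells: 11 against 5 of EBF1, 14 against 7 of PAX5, 10 against 3 of ETS1 and 9 against 2 of TEAD1 in IKDN against WT cells.

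Pcdh9 was the clearest member of the second kind. It is a delta protocadherin of brain whose gene spans 879 kb on chromosome 14. H3K27ac covered 1.99 kb in IKDN cells in 1 peak and 14.8 kb in WT cells in 8 peaks. H3K4me1 covered 6.23 kb in IKDN cells and 25.0 kb in WT cells, all of it more than 100 kb from the start, and RNAPII 2.01 kb in IKDN cells and 7.76 kb in WT cells. The IKDN peak, at chr14:94541200-94543191, lay 652 kb upstream and was 1.99 kb long, and the WT peak over it, at chr14:94538514-94544691, was 6.18 kb long. A promoter H3K27ac peak of 2.20 kb was present in WT cells only, with an Ikaros and a PAX5 peak in it. H3K27me3 covered 8.32 kb in IKDN cells, with a peak of 4.11 kb at the promoter, and 2.93 kb in WT cells, all of it over 100 kb away. Ikaros had 18 peaks named to Pcdh9 in WT cells, the most of any member, and 5 of them lay in WT H3K27ac peaks.

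**Figure D4:**
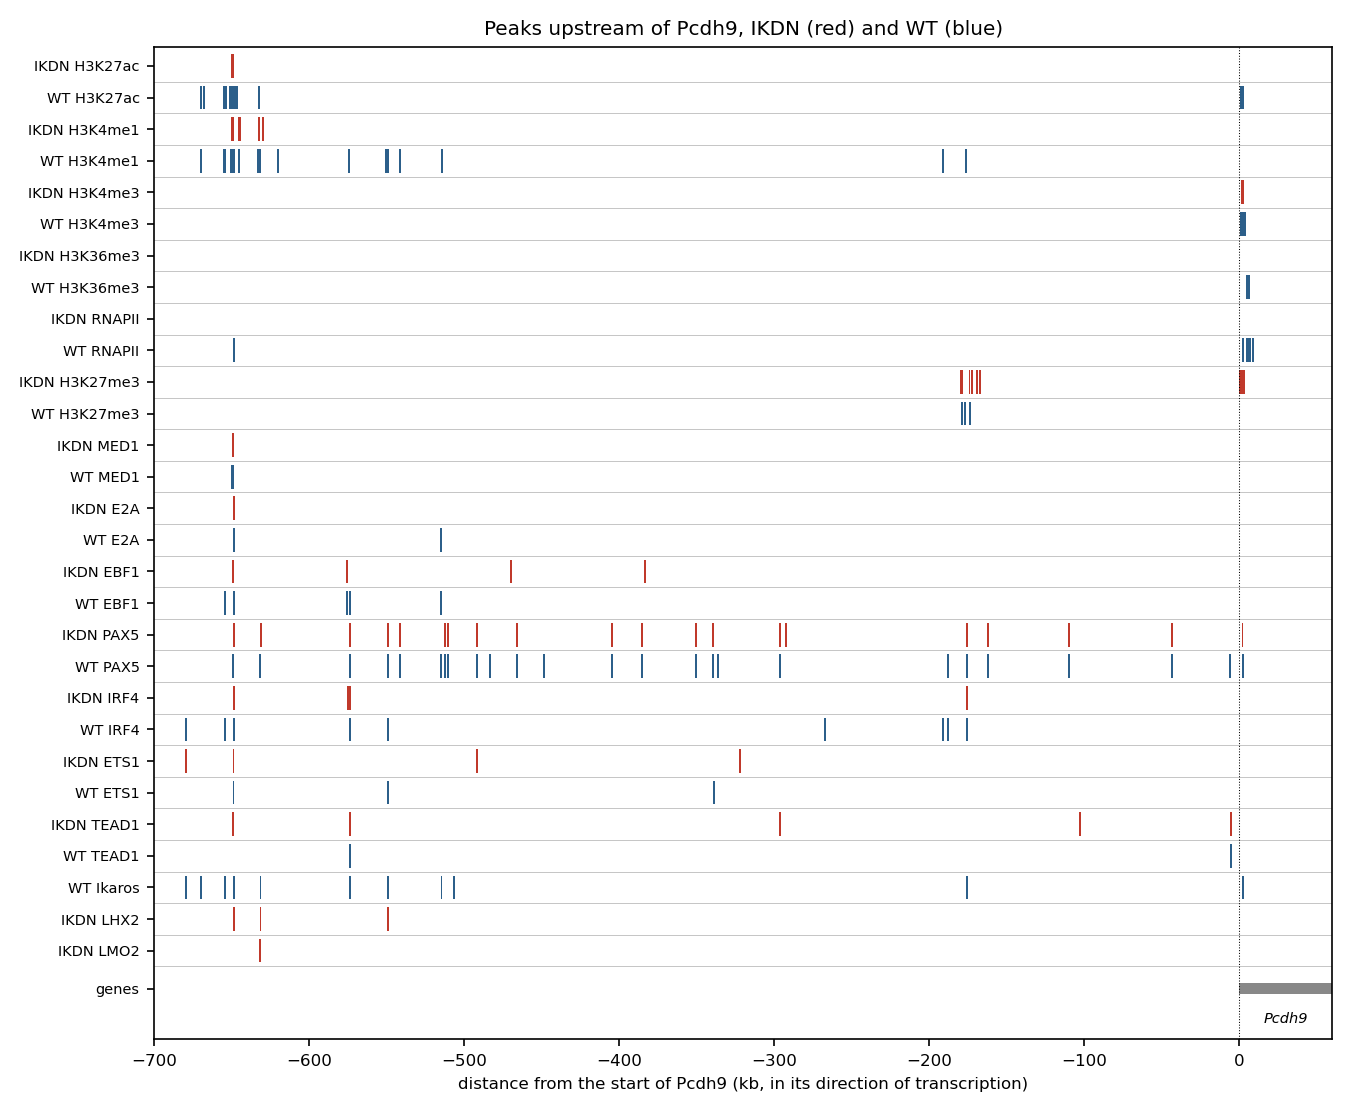
Peaks of each target from far upstream of the start of Pcdh9 to 60 kb into the gene (x axis, kb), IKDN (red) above WT (blue), narrow peaks drawn at a minimum width. IKDN cells have 1 H3K27ac peak 652 kb upstream and H3K27me3 at the promoter, and WT cells have a group of H3K27ac and H3K4me1 peaks upstream and a promoter H3K27ac peak.

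Pcdh11x and Pcdh19 lie on chromosome X. Pcdh11x had no H3K27ac in IKDN cells and 7.83 kb in WT cells, of which 5.29 kb lay at the start of the gene. RNAPII covered 0.5 kb in IKDN cells and 10.5 kb in WT cells, and H3K27me3 10.9 kb in IKDN cells and 0 in WT cells. Over the gene body RNAPII covered 0 in IKDN cells and 22.4 kb in WT cells. Pcdh19, mutated in an X-linked epilepsy of humans, had 132.6 kb of H3K27me3 in IKDN cells and 15.5 kb in WT cells. Of its 154 peaks in IKDN cells, 126 were more than 100 kb away, with a median length of 0.5 kb. Over the gene with 10 kb on each side H3K27me3 covered 30.9 kb in IKDN cells and 12.9 kb in WT cells, so the difference remained at a smaller size. Chromosome X held 20.4% of all H3K27me3 peaks in IKDN cells and 18.95% in WT cells. H3K4me3 at Pcdh19 covered 1.57 kb in IKDN cells and 5.32 kb in WT cells, while H3K27ac covered 6.39 kb in IKDN cells and 2.75 kb in WT cells. The nearest H3K27ac peak was 0.294 kb away in IKDN cells and 1401 kb away in WT cells.

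The other delta protocadherins carried mainly H3K27me3. Pcdh10 had 9.95 kb in IKDN cells and 0 by name in WT cells, though 6.34 kb in WT cells lay over the gene with 10 kb on each side under another name. Pcdh18 had 8.98 kb in IKDN cells and 1.35 kb in WT cells, together with 5.58 kb of H3K27ac in IKDN cells and 0 in WT cells. Its widest H3K27ac peaks in IKDN cells, of 1.77 and 1.51 kb, lay 255 and 172 kb from the start. A peak of 0.638 kb lay at the promoter. The widest H3K27me3 peak of Pcdh18 in IKDN cells, of 4.94 kb, lay at the start of the gene. Pcdh8 and Pcdh17 did not meet the rule, with 15.1 kb in IKDN cells and 11.9 kb in WT cells at Pcdh8, and 8.37 kb in IKDN cells and 8.87 kb in WT cells at Pcdh17. Among the remaining single genes, Pcdh12, a protocadherin of endothelium, had no H3K27me3 in IKDN cells and 7.53 kb in WT cells, and Pcdh15, the tip-link partner of Cdh23, had no histone mark beyond 0.5 kb of H3K4me2 in IKDN cells.

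The clustered protocadherins were almost free of active marks in the alpha and beta clusters. Over the 259 kb of the alpha cluster, H3K27ac covered 0.627 kb in IKDN cells and 0 in WT cells, and RNAPII and H3K36me3 covered 0 in both. Over the 256 kb of the beta cluster, H3K27ac covered 0.5 kb in IKDN cells and 0 in WT cells. H3K27me3 covered 9.92 kb of the alpha cluster in IKDN cells and 12.1 kb in WT cells, and 3.08 kb of the beta cluster in IKDN cells and 10.1 kb in WT cells. These clusters are long and mostly unmarked in both genotypes, and their small H3K27me3 peaks were shorter in sum in IKDN cells.

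The gamma cluster, 180 kb at chr18:37661775-37841873, was the only one of the 3 with more than 1 kb of H3K27ac. H3K27me3 covered 3.42 kb of it in IKDN cells in 4 peaks and 35.4 kb in WT cells in 22 peaks. H3K27ac covered 16.2 kb in IKDN cells and 11.3 kb in WT cells, and H3K4me1 19.4 kb in IKDN cells and 5.62 kb in WT cells. H3K36me3 covered 28.3 kb in IKDN cells and 13.2 kb in WT cells. The Polycomb mark was thus shorter and the enhancer and gene body marks longer in IKDN cells, while RNAPII, with 13.8 kb in IKDN cells and 14.9 kb in WT cells, and H3K4me3, with 8.18 kb in IKDN cells and 11.1 kb in WT cells, were not longer. By name, 10 gamma genes were called lower for H3K27me3 (33.3% of all genes) and none higher (29.6% of all). These genes lie side by side in 1 region, so their calls are not separate events.

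Within the gamma cluster the 2 kinds of mark lay in different places. H3K27me3 in WT cells lay over the variable exons, whose genes start along the first 104 kb, with further peaks at the starts of Pcdhgc3 and Pcdhgc4. Most of the H3K27ac, H3K4me1 and H3K36me3 lay beyond them, at the last 3 genes, Pcdhgc3, Pcdhgc4 and Pcdhgc5, at the constant exons that all gamma genes share, and in the stretch before Pcdhgc3. Pcdhgc5 had 9.54 kb of H3K27ac in IKDN cells and 2.84 kb in WT cells, and 15.3 kb of H3K36me3 in IKDN cells and 2.97 kb in WT cells. Since all gamma genes end in those exons, the marks there cannot be assigned to 1 gene. The widest H3K27ac peak, at chr18:37822190-37827674, covered 5.48 kb in IKDN cells with peaks of 8 factor lists in it, where the WT peak was 1.87 kb long and held an Ikaros peak. Over the whole cluster EBF1 had 4 peaks in IKDN cells and 2 in WT cells, IRF4 5 and 1, ETS1 8 and 1, and TEAD1 7 and 1, in the same order of genotypes.

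**Figure D5:**
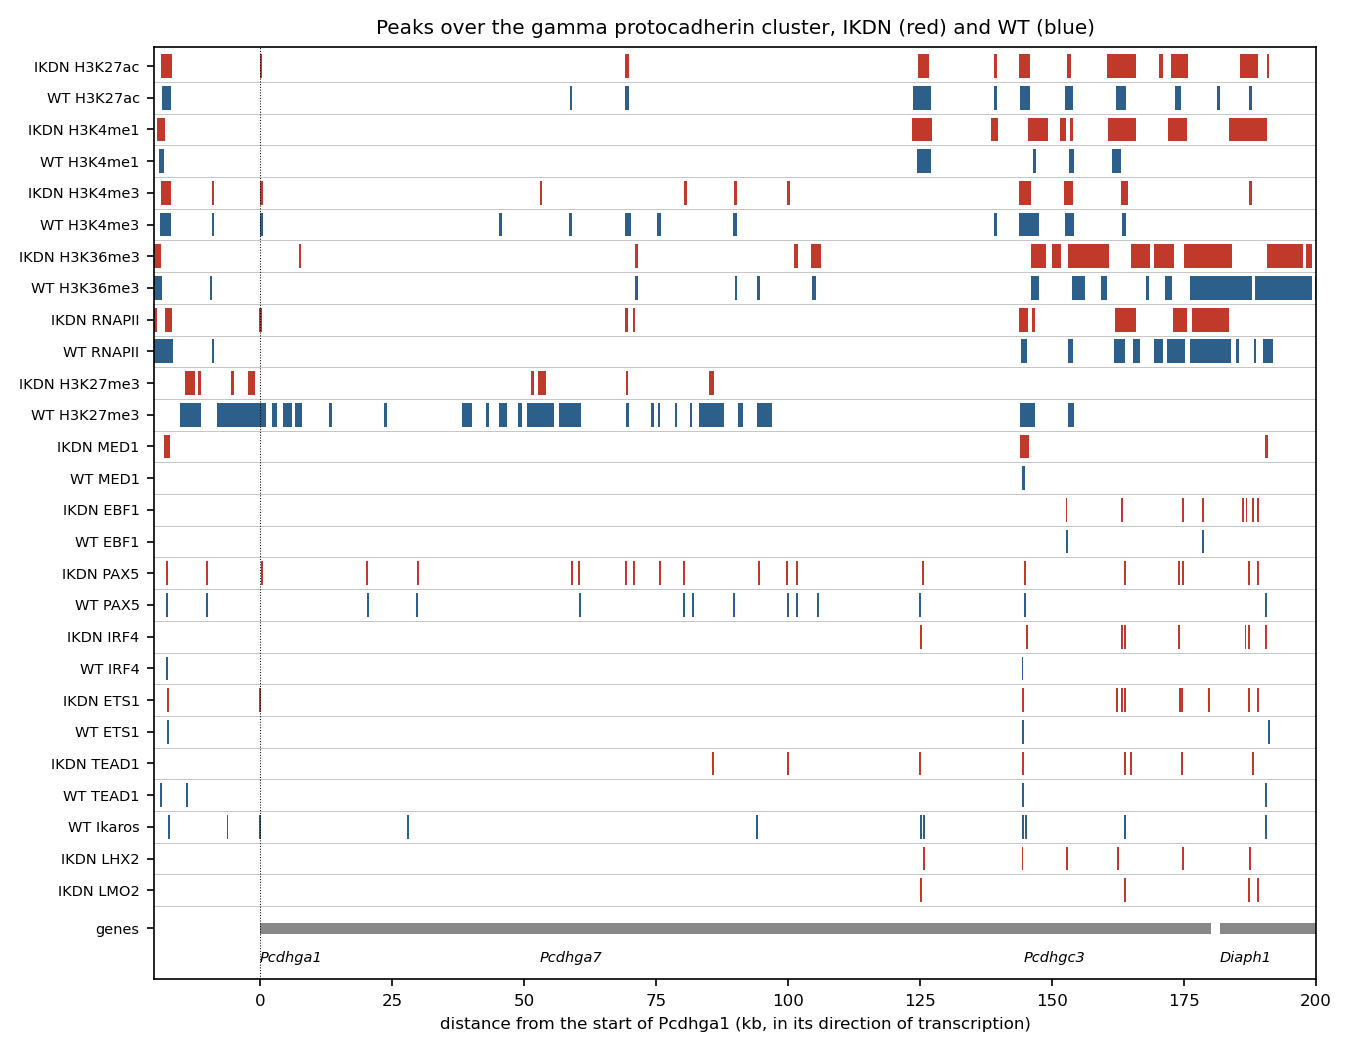
Peaks of each target over the gamma protocadherin cluster (x axis, kb from the start of Pcdhga1), IKDN (red) above WT (blue), with the starts of 3 gamma genes and of the neighbour Diaph1 named below and narrow peaks drawn at a minimum width. There are 4 H3K27me3 peaks over the cluster in IKDN cells and 22 in WT cells, mostly in the first 104 kb, and H3K27ac and H3K4me1 lie mostly beyond them.

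Gains and losses of different marks were also set side by side per gene. H3K27me3 was lower and H3K27ac higher at 2 members, Cdh22 and Pcdh1, which is 2.82% of the 71 members with either mark, against 5.34% of all such genes. H3K27me3 was higher and H3K27ac lower at 3, Cdh23, Pcdh11x and Pcdh9 (4.23% of members, 2.71% of all). Both marks were called higher by name at 3 others, Cdh6, Pcdh18 and Pcdh19 (4.23% of members, 2.63% of all), and both lower at none (2.13% of all). A shared gene name does not place the marks at the same site. H3K27ac and H3K4me1 were both called higher at 8 members (Cdh6, Cdh18, Cdh22, Cdh26, Pcdh1, Pcdh18, Pcdh19 and Pcdhgc5), which is 24.2% of the 33 members with either mark, against 10.6% of all such genes. They were both lower at 4, Cdh19, Cdh23, Pcdh11x and Pcdh9 (12.1% of members, 7.21% of all). No member had opposite calls, which were rare over all genes too. Of all such genes, 0.915% had H3K27ac higher and H3K4me1 lower, and 0.831% the reverse. H3K36me3 and RNAPII were both higher at 2, Cdh22 and Pcdhgc3, which is 5.26% of the members with either mark, against 8.53% of all such genes. Cdh22 was thus the only single gene in which H3K27ac, H3K36me3 and RNAPII were all called higher and H3K27me3 lower.

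The transcription factor lists differed in peak number and in a fixed peak width, which for TEAD1 was 276 bp in IKDN cells and 176 bp in WT cells, and for IRF4 230 bp in IKDN cells and 168 bp in WT cells. Calls from covered length follow both. TEAD1, a factor of the Hippo pathway, was called higher at 15 of 35 members (28.9% of all genes) and lower at 3 (2.15% of all). With equal widths 10 were higher (13.4% of all) and 4 lower (3.67% of all), and scaled to equal list totals 6 were higher (4.29% of all) and 7 lower (5.1% of all), so the balance turned. By peak number the members had 135 TEAD1 peaks in IKDN cells and 104 in WT cells, a ratio of 1.30, against 1.42 for the whole lists. The places differed more than the number: 30.4% of the members' TEAD1 peaks in IKDN cells and 1.92% of those in WT cells lay in an H3K27ac peak of the same genotype, where over all TEAD1 peaks the shares were 44.2% in IKDN cells and 31.7% in WT cells. Cdh3 had 4 TEAD1 peaks in IKDN cells, the nearest 0.911 kb from its start, and none in WT cells.

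IRF4, a factor of B cell differentiation, was higher at 10 of 26 members (16.6% of all) and lower at 1 (0.463% of all). The labels name the same antibody for IRF4 and PAX5 in both genotypes. With equal widths 6 were higher (10.7% of all) and 1 lower (0.765% of all), and scaled to equal list totals none was higher (1.9% of all). The members had 69 IRF4 peaks in IKDN cells and 36 in WT cells, a ratio of 1.92 against 1.65 for the whole lists. Cdh9 had the largest gain, with 7 peaks in IKDN cells and 2 in WT cells, the nearest 706 kb away in IKDN cells and 812 kb away in WT cells, and Pcdh18 had 5 in IKDN cells and 1 in WT cells. The member called lower was Pcdh9, with 4 peaks in IKDN cells and 10 in WT cells. EBF1, which specifies the B lineage, was higher at 9 of 32 (14.6% of all) and lower at 1, Cdh11 (0.713% of all). With equal widths 6 were higher (7.9% of all) and 3 lower (1.09% of all), and scaled to equal list totals 3 were higher (2.94% of all) and 4 lower (1.74% of all), so the balance turned. ETS1, compared without 3 members on chromosome 2, was higher at 4 of 32 (9.43% of all) and lower at 2 (0.828% of all), Cdh10 and Cdh11, and the antibody that the labels name for ETS1 in IKDN cells is also named for LHX2 and for E2A in WT cells, not for ETS1 in WT cells.

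PAX5, the guardian of B cell identity, had most of the members' factor peaks, 590 in IKDN cells and 558 in WT cells on the chromosomes compared. It was compared for 86 members, leaving out 2 on chromosomes where the IKDN list is incomplete, and was higher at 6 of 64 with a peak (13.1% of all) and lower at none (3.96% of all). Pcdh1 and Cdh26 had the largest gains, with 15 peaks at Cdh26 in IKDN cells and 8 in WT cells. Over the Cdh26 gene body with 10 kb on each side the order turned, by less than the rule asks for. Over all chromosomes the members had 613 PAX5 peaks in WT cells, and the next 2 WT shares count them all. Of the members' PAX5 peaks, 73.2% in IKDN cells and 79.1% in WT cells lay more than 100 kb from a start site. Over all PAX5 peaks the shares were 24.5% in IKDN cells and 26.2% in WT cells. Only 6.61% in IKDN cells and 3.92% in WT cells lay in H3K27ac, against 29.6% and 27.9% of all. Of all 590 member PAX5 peaks in IKDN cells, near and far, 81.2% overlapped a WT peak (exact 95% interval 77.8 to 84.3), against 69.0% of all.

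E2A, the basic helix-loop-helix factor of early B cells, showed the opposite count, lower at 10 of 18 members with a peak (11.8% of all genes) and higher at none (2.26% of all). The comparison covers the 11 chromosomes on which the WT list is complete, and 17 members were left out. The calls rest on distal and low-scored peaks: within 100 kb of a start site none was lower (7.48% of all), and in the top-scored 50% of peaks 1 was (7.15% of all). Over gene bodies with 10 kb on each side 2 were lower (6.11% of all) and 22 higher (1.26% of all), where nested gamma genes share the same peaks. On the chromosomes compared, 13 member peaks were found in IKDN cells and 92 in WT cells. Cdh20 had 0 in IKDN cells and 16 in WT cells, and Pcdh17 had 0 in IKDN cells and 12 in WT cells. Of the WT peaks, 85.9% lay more than 100 kb from a start site and 8.70% lay in H3K27ac, against 18.8% and 59.8% of all WT E2A peaks. The labels name for E2A in IKDN cells the antibody also named for IRF4 and PAX5, and for E2A in WT cells the one also named for ETS1 and LHX2 in IKDN cells. Which protein each such list reports is therefore uncertain from the labels, and the part of the antibody in this difference was not tested.

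MED1 was called higher at 10 of 18 members (71.5% of all genes) and lower at 8 (9.1% of all). Scaled to equal list totals 3 were higher (18.5% of all), and in the top-scored 50% of peaks 1 was lower (7.61% of all). The MED1 list of IKDN cells covers 29.5 Mb and that of WT cells 10.3 Mb. The members with the largest gains were Cdh17 and Cdh22. Those called lower had at most 3 WT peaks each, with 3 at Pcdh19 the most, and 25% of the WT peaks named to members lay in H3K27ac against 79.9% of all WT MED1 peaks. Aiolos, a relative of Ikaros, was called lower at 1 of 11 members (0.763% of all), Cdh11 with 1 peak in IKDN cells and 6 in WT cells, and higher at none (0.3% of all).

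The lists of 1 genotype only are described without comparison. Ikaros in WT cells had 86 peaks at 25 members, and 38.4% of them lay in WT H3K27ac, against 62.6% of all Ikaros peaks. After Pcdh9, Cdh15 had 8 and Cdh5 and Pcdh19 had 7 each. No Ikaros peak was named to Cdh1, Cdh2, Cdh4 or Cdh22. LHX2, a LIM homeodomain factor, had 57 peaks at 26 members in IKDN cells, led by Pcdh1 with 6, and by Cdh17 and Pcdh9 with 5 each. LMO2, a LIM-only adaptor of blood progenitors, had 22 peaks at 14 members in IKDN cells, led by Pcdh1 with 4 and Cdh17 and Cdh22 with 3 each. All 3 LMO2 peaks and both LHX2 peaks of Cdh22 lay in IKDN H3K27ac.

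The partners of cadherins were described from 3 lists. Of 23 catenins and other adherens junction genes, 18 had H3K27ac, and 10 were called higher in IKDN cells (21.9% of all genes) and 2 lower (16.8% of all), with 146 kb in IKDN cells and 78.3 kb in WT cells. Ctnnd1, which codes for the p120 catenin that holds cadherins at the surface, had 16.0 kb in IKDN cells and 5.39 kb in WT cells. Jup, which codes for plakoglobin, had 7.44 kb in IKDN cells and 0 in WT cells, with no H3K27me3 in IKDN cells and 10.4 kb in WT cells. Vcl, which codes for vinculin, had 14.2 kb of H3K27ac in IKDN cells and 5.21 kb in WT cells. Ctnnb1, which codes for beta-catenin, had 2.88 kb in IKDN cells and 2.53 kb in WT cells and did not meet the rule. For H3K36me3, 9 of 15 were higher (30.4% of all) and 1 lower (10.1% of all). RNAPII did not follow these marks, with 5 of 19 higher (27.2% of all) and 6 lower (24.8% of all). It covered 173 kb in IKDN cells and 258 kb in WT cells. Ctnnd1 was called higher for RNAPII, and Vcl lower, with 21.8 kb in IKDN cells and 59.7 kb in WT cells. No classical type I cadherin was called higher for H3K27ac, H3K36me3 or RNAPII.

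Other genes of the cadherin superfamily, such as Fat, Celsr and desmosomal cadherin genes, had H3K27ac at 9 of 27, with 2 higher (21.9% of all) and 2 lower (16.8% of all). Of the 18 with an H3K27me3 peak, 9 were higher (29.6% of all) and 2 lower (33.3% of all). Fat1, a giant cadherin, had 46.4 kb of H3K27me3 in IKDN cells and 3.77 kb in WT cells. Celsr1, a planar polarity cadherin, had 18.7 kb of H3K27ac in IKDN cells and 41.9 kb in WT cells. Of 25 regulators of cadherin expression and cleavage, 20 had H3K27ac, with 6 higher (21.9% of all) and 2 lower (16.8% of all). Snai1, a repressor of E-cadherin, had 10.2 kb in IKDN cells and 3.53 kb in WT cells, and Adam10, a protease that cleaves cadherins, had 19.5 kb in IKDN cells and 11.8 kb in WT cells. Zeb2, another repressor of E-cadherin, had 22.2 kb in IKDN cells and 30.3 kb in WT cells and did not meet the rule.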

How the data were processed

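Chromatin immunoprecipitation peaks were used from 33 libraries, 17 IKDN and 16 WT; 2 input libraries have no list here. The peak lists give coordinates, a peak score, a distance to the nearest start site and a gene name, per the file headers. The authors deposited the score without naming its scale, and it served only to take the top-scored 50% of a list. Tools listed by the submitters' processing notes are HOMER, BWA, STAR and bcl2fastq (version 1.8.3), and the builds are mm10 and mm9. The positions fit mm10, since 99.1% of derived start sites lay within 1000 bp of their GRCm38 gene. If scores are taken as tags per 10 M, the libraries hold 10.7 to 37.5 M tags, an inference. Lists hold 2802 to 86703 peaks.

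Covered length per gene is the summed length of peaks with that name. Calls needed 1.5-fold and 1000 bp (500 bp for MED1 and factors). Where the peaks of a list ended more than 10 Mb short of the other lists, that chromosome was left out of the comparison. 86 members matched RefSeq genes. The antibody label is the same in both genotypes for 12 of 15 targets and differs for H3K4me3, E2A and ETS1; 3 labels are given for more than 1 target (E2A in IKDN cells with IRF4 and PAX5; E2A in WT cells with ETS1 and LHX2 in IKDN cells; H3K4me1 with H3K4me3 in IKDN cells). Shares carry exact Clopper-Pearson 95% intervals for counting error. The call and overlap steps were tested on simulated data. Python 3.11.15, pandas 2.3.3, numpy 2.4.6 and scipy 1.17.1 were used.

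Named genes are Cdh1 to Cdh5, Cdh11, Cdh13, Cdh15, Cdh17, the 3 largest called gains and losses per mark, the 2 largest per factor, the 3 with most covered length in a list of 1 genotype, and the clusters; other names were chosen after their values were seen. The members and lists were chosen with earlier results of these data known. Equal peak widths and a promoter window of 1000 bp were chosen after seeing the data.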

Additional observations from a re-analysis of the deposited data

How the results depend on the processing

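No paired analysis was possible because each genotype and target has 1 library, and for the same reason none could be left out. Counts are members called in IKDN cells, and brackets give the share of all genes called at the same setting. When all peaks over a gene and its 10 kb flanks were summed whatever their name, nested gamma genes are each counted with the shared exons. The counts higher were then 28 for H3K27ac (18.3%), 30 for H3K4me1 (19.7%), 28 for H3K4me2 (12.1%), 4 for H3K4me3 (3.42%), 5 for RNAPII (23.8%), 27 for MED1 (73.8%), 22 for E2A (1.26%), 27 for EBF1 (8.56%), 26 for PAX5 (10.8%), 25 for IRF4 (12.1%), 22 for ETS1 (5.56%) and 31 for TEAD1 (23.8%). The counts lower were 3 for H3K27ac (14.7%), 4 for H3K4me1 (19.4%), 2 for H3K4me2 (10.5%), 32 for H3K27me3 (30.8%), 2 for MED1 (6.64%), 2 for E2A (6.11%), 2 for PAX5 (3.19%), 0 for IRF4 (0.232%) and 1 for ETS1 (0.386%). Within 100 kb of the start site the counts higher were 6 for RNAPII (27.2%), 6 for MED1 (72.1%), 4 for EBF1 (12.3%) and 5 for IRF4 (14.5%), and the counts lower 2 for H3K27ac (16.3%), 4 for H3K4me1 (19.7%), 3 for MED1 (8.25%), 0 for E2A (7.48%), 0 for EBF1 (0.375%), 0 for IRF4 (0.253%), 0 for ETS1 (0.373%), 0 for TEAD1 (1.43%) and 0 for Aiolos (0.65%). In the top-scored 50% of peaks the counts higher were 2 for H3K4me3 (6.37%), 6 for RNAPII (29.8%), 3 for EBF1 (10.3%), 4 for IRF4 (10.7%), 1 for ETS1 (5.05%) and 7 for TEAD1 (21.4%), and the counts lower 5 for H3K4me3 (13%), 2 for H3K36me3 (11.8%), 1 for MED1 (7.61%), 1 for E2A (7.15%), 0 for EBF1 (0.548%), 1 for PAX5 (3.02%), 0 for IRF4 (0.461%) and 1 for ETS1 (0.243%). With lengths scaled to equal list totals the counts higher were 4 for H3K4me3 (6.89%), 3 for MED1 (18.5%), 2 for E2A (8.96%), 3 for EBF1 (2.94%), 0 for IRF4 (1.9%), 2 for ETS1 (2.58%) and 6 for TEAD1 (4.29%), and the counts lower 4 for EBF1 (1.74%) and 7 for TEAD1 (5.1%). With equal peak widths the count lower was 3 for EBF1 (1.09%) and the count higher 6 for IRF4 (10.7%). With each cluster as 1 gene, the count lower was 7 for H3K27me3 (33.2%). The other counts of calls stayed within 1.5 times those reported, and so did the promoter states with a 1000 bp window.

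An overlap of 50% of both peaks gave 50% for IKDN H3K4me3 peaks, and for H3K27me3 12.4% in IKDN and 20.5% in WT cells. Over the gene body the difference turned at Cdh23 for H3K27me3 (-14.3 kb), at Cdh26 for PAX5 (-0.060 kb), at Cdh10 for ETS1 (0.176 kb) and at Cdh18 for TEAD1 (0.148 kb, and 0.100 kb in the top-scored 50%). No value of a single gene turned when lengths were scaled, widths equalized, clusters merged or distances limited to 100 kb. The sizes were less stable than the signs. Of 63 differences of named genes, 42 changed in size without turning over the gene body, and 17 were counted as unchanged. Within 100 kb of the start site 21 of 63 changed in size, and in the top-scored 50% of peaks 22 of 63. With lengths scaled 10 of 63 did, with equal widths 4 of 19, and with clusters merged 0 of 56. The causes were not tested beyond what each setting leaves out.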
